A study of Mus musculus with 6 samples.

Results

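The genes described here are the cadherins and epithelial-mesenchymal transition (EMT) factors *Cdh1*, *Cdh2*, *Epcam*, *Snai1*, *Snai2*, *Zeb1*, *Zeb2*, *Twist1*, *Vim* and *Fn1*. They were taken by symbol and make up 10 of the 24393 features counted in each library. All 10 were among the 13846 genes that passed the filter on low counts. RNA was sequenced from 3 control and 3 HOXA13 cultures of KH2, a mouse embryonic stem cell (mESC) line labelled as strain C57/BL/6. Cells of both groups grew in medium with the cytokine LIF on irradiated 3T3-Swiss albino fibroblasts, so RNA from these feeder cells can be present in every library. The HOXA13 cells carry the human *HOXA13* gene at a targeted locus under doxycycline control, from colonies selected with hygromycin, while the labels give the genotype only as CONTROL or HOXA13 and state that no treatment was applied. The labels do not say which clone or passage each library came from, so p-values measure the spread between these libraries only.

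E-cadherin (*Cdh1*) joins epithelial and embryonic stem cells to their neighbours through calcium-dependent contacts, and its tail binds catenins that link the junction to actin. In EMT, which also takes place as cells leave the epiblast at the primitive streak, transcription factors of the Snail (*Snai1*, *Snai2*), Zeb (*Zeb1*, *Zeb2*) and Twist (*Twist1*) families lower E-cadherin, while N-cadherin (*Cdh2*), the intermediate filament vimentin (*Vim*) and the matrix protein fibronectin (*Fn1*) become more prominent. Fibroblasts hold much *Vim* and *Fn1* and several of the transcription factors, but little *Cdh1* or *Epcam*, which encodes an adhesion protein of epithelia and pluripotent cells.

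Snail and Zeb proteins bind the E-box words CACCTG and CAGGTG, which are each other's reverse complement. Of the members, *Epcam*, *Snai1*, *Twist1*, *Vim* and *Zeb2* (5 of 10) matched the promoter table, and *Cdh1*, *Cdh2*, *Snai2*, *Zeb1* and *Fn1* have no entry. Over the 250 bases before the start site, *Epcam* and *Snai1* hold these words, and neither was found before *Twist1*, *Vim* or any of the 4 *Zeb2* starts. The promoters of *Epcam*, whose RNA was higher in the HOXA13 libraries, and of *Snai1*, which encodes an E-box binding repressor, are therefore printed, 5′ to 3′ on the coding strand with the E-box words in capitals. The sequences are from RefSeq (GRCm38.p6) and were placed on mm9 by exact match, at chr17:88035069-88035318 (plus strand) and chr2:167363445-167363694 (plus strand).
Epcam: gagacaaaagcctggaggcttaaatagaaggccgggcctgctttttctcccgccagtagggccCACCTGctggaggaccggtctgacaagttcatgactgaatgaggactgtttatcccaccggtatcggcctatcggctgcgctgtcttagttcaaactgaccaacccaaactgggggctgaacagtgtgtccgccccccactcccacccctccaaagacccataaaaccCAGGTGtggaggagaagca
Snai1: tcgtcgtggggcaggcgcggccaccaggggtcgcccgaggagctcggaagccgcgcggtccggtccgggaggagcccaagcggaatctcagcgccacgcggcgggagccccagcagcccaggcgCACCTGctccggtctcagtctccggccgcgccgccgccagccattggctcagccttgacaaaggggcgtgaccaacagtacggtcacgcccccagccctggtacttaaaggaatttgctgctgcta
The *Epcam* words start 187 and 19 bases before the start site and the *Snai1* word starts 126 bases before it. At least 1 of the words stands in 17.2% of the same 250-base windows (5657 of 32851 promoters). Core letters of posterior HOX binding sites, TTTAT or ATAAA, occur 2 times before *Epcam* and 0 times before *Snai1*. They occur 1 time each before *Twist1*, *Vim* and 1 of the 4 *Zeb2* starts, and in 37.3% of all windows. These matches describe letters, not bound sites.

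Libraries held 14608681 to 21766589 counts in the control group and 13494135 to 20374341 in the HOXA13 group, so that 3 counts correspond to 0.134 to 0.227 normalised CPM (counts per 1e6 counts, with library sizes scaled by edgeR's TMM factors). The human *HOXA13* feature had 6, 0 and 0 counts in control libraries 1 to 3 and 4298, 4177 and 2881 counts in HOXA13 libraries 1 to 3. The stem cell gene *Pou5f1* was at 633 to 783 CPM in controls and 685 to 694 CPM in HOXA13 libraries, and all 10 listed stem cell markers were detected. Of these, 4 were higher (*Klf4*, *Esrrb*, *Nanog* and *Sox2*) and 2 lower (*Lin28a* and *Tdgf1*) in HOXA13 libraries, where 27.7% of all genes were called, and *Klf4*, *Esrrb* and *Sox2* were called in only 2 of the 6 fits that left out a library. The control libraries were less alike than the HOXA13 libraries, with a chi-square per degree of freedom of 12.7 to 34.2 between pairs of controls and 1.89 to 6.03 between pairs of HOXA13 libraries. Control library 1 was the highest or lowest of the 6 libraries for several members.

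Between the groups, *Cdh1* and *Cdh2* RNA was lower and *Epcam* RNA higher in HOXA13 libraries, while none of the 5 transcription factors and neither *Vim* nor *Fn1* passed the test. Genes were tested by quasi-likelihood in edgeR, p-values were adjusted by the Benjamini-Hochberg method over the 13846 genes, and a gene was called at an adjusted p under 0.05. Thus 1 member was higher, where 14.4% of all genes were, and 2 were lower, where 13.3% of all genes were. The 3 called members are 30.0% of the list, against 27.7% of all genes called in either direction. The groups did not overlap for 5 members (*Cdh1*, *Cdh2*, *Epcam*, *Snai2* and *Zeb2*), and did not overlap for 45.7% of all genes. The median log2 fold change was 0.01 over the members and 0.00 over all genes. As counts, both shares lie near those over all genes. Because these are bulk samples, fewer cells of a type and less RNA per cell cannot be told apart in any of these values.

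**Figure D1:**
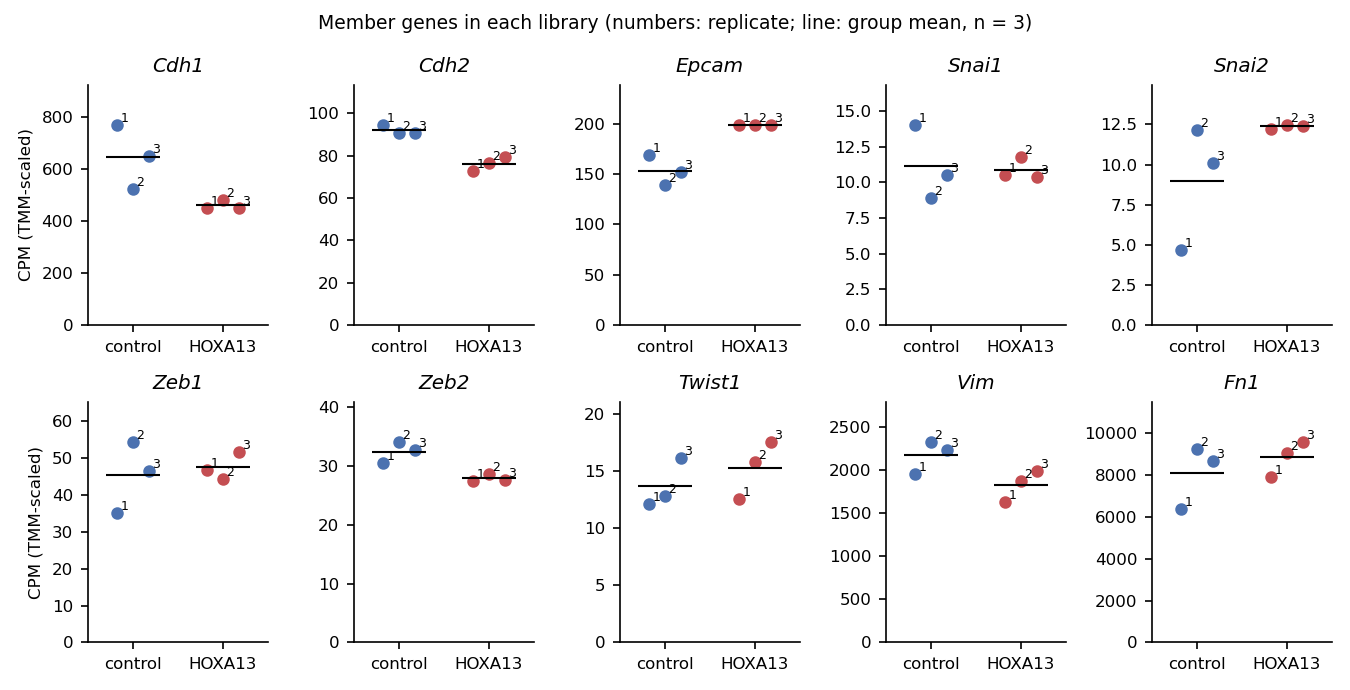
Normalised CPM (linear axes from 0, 1 panel a gene) of the 10 member genes, with control and HOXA13 libraries as points numbered by replicate and a line at each group mean (n = 3). *Cdh1* and *Cdh2* lie lower and *Epcam* higher in every HOXA13 library, while control library 1 is the lowest point for *Snai2*, *Zeb1*, *Twist1* and *Fn1*.

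Compared per kilobase of merged exon, the members spanned a wide range of levels. In controls *Fn1* stood at 971 ± 181 CPM per kb (SD, n = 3) and *Vim* at 931 ± 83.0, which do not differ beyond their spread. *Cdh1* followed at 142 ± 27.1, *Epcam* at 75.1 ± 7.14 and *Cdh2* at 11.4 ± 0.291 CPM per kb. The transcription factors were lowest, with *Twist1* at 8.48 ± 1.32, *Snai1* at 6.88 ± 1.62, *Zeb1* at 4.66 ± 0.997, *Snai2* at 4.42 ± 1.90 and *Zeb2* at 2.11 ± 0.119 CPM per kb. Neighbouring levels of *Twist1* and *Snai1*, and of *Zeb1* and *Snai2*, lie within one another's spread. In HOXA13 libraries *Cdh1* (101 ± 3.88 CPM per kb) and *Epcam* (97.3 ± 0.214) came close to each other, and *Cdh2* (9.45 ± 0.418) and *Twist1* (9.46 ± 1.57) could not be ordered.

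*Cdh1* (chr8:109127251-109194146 of mm9, plus strand) encodes E-cadherin, the cadherin of the stem cell colonies. It was at 772, 524 and 649.9 CPM in control libraries 1 to 3 and at 452, 482 and 450.5 CPM in HOXA13 libraries 1 to 3. Every HOXA13 library was below every control library, but control 2 stood only slightly above the highest HOXA13 library. The mean went from 649 ± 124 to 461 ± 17.7 CPM (SD, n = 3), a log2 fold change of -0.49 (SE 0.13, 95% interval -0.78 to -0.20, adjusted p = 0.0225), or 0.711 of the control level. The call is not firm. Leaving out any 1 of control library 3 (adjusted p = 0.0691) or HOXA13 libraries 1 (0.0976), 2 (0.0670) or 3 (0.0850) lost it, with a log2 fold change between -0.63 and -0.35 when each of the 6 libraries was left out.

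*Cdh2* (chr18:16747386-16967755 of mm9, minus strand) encodes N-cadherin, the cadherin that takes the place of E-cadherin in many mesenchymal and neural cells. Its levels were 94.8, 90.6 and 90.8 CPM in controls and 72.6, 76.7 and 79.3 CPM in HOXA13 libraries. The groups lay well apart relative to their spread, with a mean of 92.0 ± 2.35 against 76.2 ± 3.38 CPM. The log2 fold change was -0.27 (SE 0.07, 95% interval -0.42 to -0.12, adjusted p = 0.0168). *Cdh2* was thus lower in the same libraries as *Cdh1*, at 0.828 of its control level. The adjusted p rose to 0.0712 without HOXA13 library 1 and to 0.0749 without HOXA13 library 2. It was 0.0501 with the replicate number as a block.

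Since both cadherins were lower, their ratio was read within each library, where scaling between libraries plays no role. Per kilobase of exon, *Cdh1* exceeded *Cdh2* by 14.4, 10.2 and 12.6 times in control libraries 1 to 3 and by 11.0, 11.1 and 10.0 times in HOXA13 libraries 1 to 3. The groups overlap, with a mean ratio of 12.4 ± 2.09 in controls and 10.7 ± 0.583 in HOXA13 libraries. E-cadherin RNA therefore exceeded N-cadherin RNA in every library of both groups. How much of either RNA came from stem cells or from feeder fibroblasts was not tested, so the ratio describes the whole culture.

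*Epcam* (chr17:88035319-88050446 of mm9, plus strand) was the member with the most stable call. It stood at 169, 139.5 and 152 CPM in controls and at 198, 199 and 198 CPM in HOXA13 libraries. All HOXA13 libraries were above all controls and differed from each other by less than 1 CPM. The mean rose from 153 ± 14.6 to 199 ± 0.436 CPM (SD, n = 3), a log2 fold change of 0.37 (SE 0.08, 95% interval 0.20 to 0.55, adjusted p = 0.00904). The call remained when each library was left out in turn, with an adjusted p between 0.000719 and 0.0454. *Epcam* and *Cdh1*, both epithelial adhesion genes, thus changed in opposite directions.

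**Figure D2:**
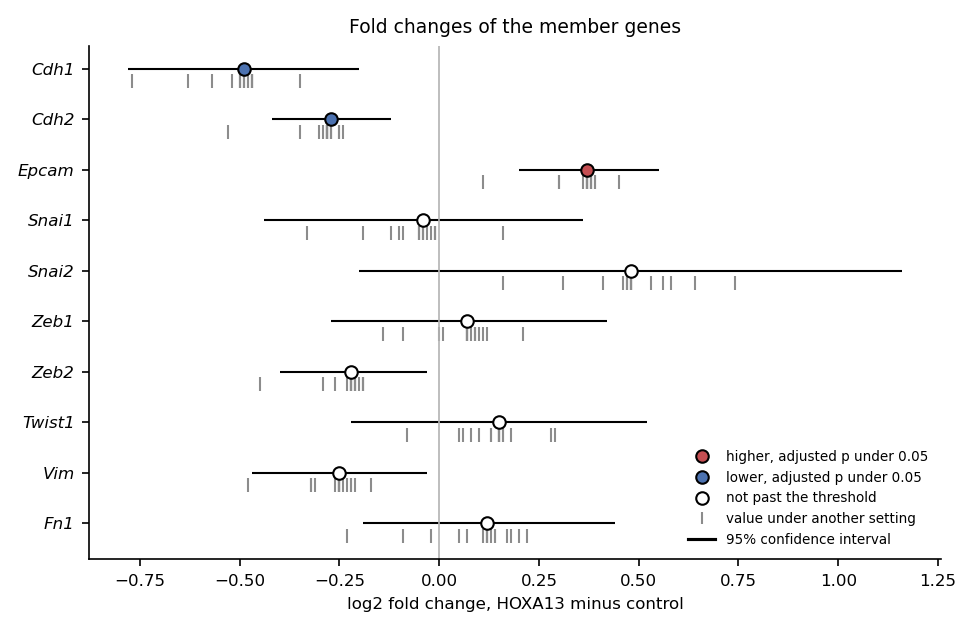
Log2 fold change of each member gene, HOXA13 minus control (circles), with lines for 95% intervals from edgeR over 3 libraries a group, grey ticks for the value under each alternative setting, and red or blue fill for genes higher or lower at an adjusted p under 0.05. The intervals of *Cdh1*, *Cdh2* and *Epcam* lie clear of 0 and are called, those of *Vim* and *Zeb2* lie below 0 without a call, and the other intervals include 0.

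*Cdh1* was highest in control library 1, then 3, then 2, and so were *Cdh2*, *Epcam* and *Snai1*, of which *Epcam* was higher in HOXA13 libraries. *T*, the streak transcription factor Brachyury, followed that order at 181, 10.5 and 85.2 CPM in control libraries 1 to 3, and was at 1.37, 2.48 and 2.27 CPM in HOXA13 libraries (log2 fold change -5.53, SE 0.99, adjusted p = 0.00519, and -4.60 without control library 1). The summed level of the 10 streak markers was 439, 40.6 and 190 CPM in controls and 20.6 to 23.8 CPM in HOXA13 libraries. Of the 8 streak markers tested, 5 were lower in HOXA13 libraries and 0 higher (62.5% lower, against 13.3% of all genes), and limma-voom called 0 of them. Over the fits that left out 1 library, 2 to 10 were called lower, with 10 called without control library 2, where more markers entered the test. Without control library 1, *Cdh1* had a log2 fold change of -0.35 (adjusted p = 0.0146), and without control library 2 of -0.63 (0.000404). The part of the streak-like RNA in the *Cdh1* values was not tested.

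**Figure D3:**
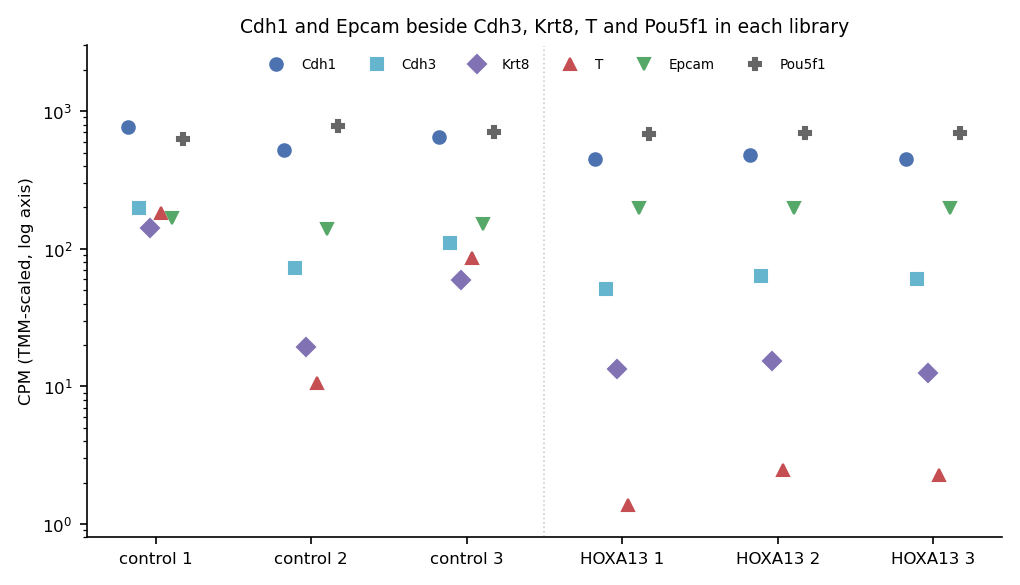
CPM (log axis) of *Cdh1*, *Epcam*, *Cdh3*, *Krt8*, *T* and *Pou5f1* in each of the 6 libraries. *Cdh1*, *Cdh3*, *Krt8* and *T* are highest in control library 1, lowest among controls in library 2 and lower still in all HOXA13 libraries, *Epcam* is higher in all HOXA13 libraries, and *Pou5f1* overlaps between the groups.

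By largest log2 difference over the 6 libraries after centring, among 9789 genes, the profiles nearest to *Cdh1* were those of *Pde4d* (0.062), *Tnik* (0.069) and *Stim1* (0.069). Nearest to *Cdh2* were *Surf4* (0.034), *Txndc5* (0.034) and *Sh3glb2* (0.036). *Pde4d* encodes a cyclic AMP phosphodiesterase, *Tnik* a kinase, *Stim1* a calcium sensor of the endoplasmic reticulum and *Surf4* a cargo receptor.

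Of the E-box binding factors, *Snai1* (chr2:167363695-167368314 of mm9, plus strand), a repressor of *Cdh1* needed for exit from the streak, was at 14.1, 8.90 and 10.5 CPM in controls and at 10.5, 11.8 and 10.4 CPM in HOXA13 libraries. The groups overlap, and control library 1 was the highest of all 6. The log2 fold change was -0.04 (SE 0.17, 95% interval -0.44 to 0.36, adjusted p = 0.881) and turned to 0.16 without that library. *Snai2* (chr16:14705945-14709488 of mm9, plus strand), the other Snail repressor measured, gave 4.68, 12.2 and 10.1 CPM in controls and 12.2, 12.5 and 12.4 CPM in HOXA13 libraries. All HOXA13 values were above all control values, though barely above control library 2, and control library 1 was the lowest. Its log2 fold change of 0.48 (SE 0.30, 95% interval -0.20 to 1.16, adjusted p = 0.268) did not pass the test, and was 0.16 without control library 1 and up to 0.74 with another library left out.

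*Zeb1* (chr18:5591858-5775465 of mm9, plus strand), a zinc finger repressor of epithelial genes, stood at 35.1, 54.4 and 46.4 CPM in controls and at 46.6, 44.3 and 51.7 CPM in HOXA13 libraries. The HOXA13 values fell within the control range, and the log2 fold change was 0.07 (SE 0.15, 95% interval -0.27 to 0.42, adjusted p = 0.761), or -0.09 without control library 1. Its relative *Zeb2* (chr2:44839154-44972915 of mm9, minus strand) was at 30.5, 34.1 and 32.7 CPM in controls and at 27.4, 28.7 and 27.7 CPM in HOXA13 libraries. The *Zeb2* groups did not overlap, but the log2 fold change of -0.22 (SE 0.08, 95% interval -0.40 to -0.03) missed the threshold with an adjusted p of 0.0810. It passed without control library 1 (-0.26, adjusted p = 0.0330), and with library size alone as scaling (-0.29, adjusted p = 0.0284), which shifted the median of all genes by -0.07. *Twist1* (chr12:34642536-34644682 of mm9, plus strand), a basic helix-loop-helix factor of mesoderm and fibroblasts, gave 12.1, 12.8 and 16.1 CPM in controls and 12.5, 15.8 and 17.5 CPM in HOXA13 libraries. These groups overlap, with a log2 fold change of 0.15 (SE 0.16, 95% interval -0.22 to 0.52, adjusted p = 0.525). It ranged from 0.05 to 0.29 when each library was left out in turn. At 3 libraries a group the intervals of *Snai1*, *Zeb1* and *Twist1* still allow changes of the size seen for *Cdh2* in at least one direction.

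*Vim* (chr2:13495554-13504453 of mm9, plus strand) was at 1958, 2330.0 and 2237 CPM in controls and at 1633, 1870.0 and 1990.0 CPM in HOXA13 libraries. HOXA13 library 3 was above control library 1, so the groups overlap. The log2 fold change was -0.25 (SE 0.09, 95% interval -0.47 to -0.03, adjusted p = 0.0871). The adjusted p was 0.0161 without control library 1 and 0.0388 with the replicate block. It was 0.0348 with library size alone, a scaling that shifted the median of all genes by -0.07 and *Vim* to -0.32. *Fn1* (chr1:71632094-71699774 of mm9, minus strand) took the most reads of any member, at 6392, 9243 and 8683 CPM in controls and 7898, 9046 and 9574 CPM in HOXA13 libraries. The groups overlap, control library 1 was the lowest, and the log2 fold change was 0.12 (SE 0.14, 95% interval -0.19 to 0.44, adjusted p = 0.545). Chromosome 1 as a whole was higher in HOXA13 libraries, with a median log2 fold change of 0.38 over 739 genes and 56.2% of them called. Chromosome 14, which holds *Cdh24* and *Sox7* described below, had a median of 0.26 over 437 genes, with 31.1% called. With each chromosome centred in each library *Fn1* turned to -0.23 (adjusted p = 0.171), and without control library 1 it was -0.02.

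Feeder fibroblasts are a known source of *Vim*, *Fn1* and *Twist1* RNA, so fibroblast markers were read beside them in every library. All 20 listed markers were detected, and none was called by edgeR, with 1 higher and 1 lower at an unadjusted p under 0.05. DESeq2 called 1 higher and 1 lower and limma-voom called 0. Up to 3 were higher (without control library 2) and up to 2 lower (without control library 1 or with chromosomes centred) under the alternatives. Their summed level was 6210.0, 9016 and 9016 CPM in controls and 8330.0, 9576 and 10130.0 CPM in HOXA13 libraries, which is 0.640% to 0.993% of the counts. *Col1a1*, the main fibrillar collagen of fibroblasts, ranged from 1613 to 2467 CPM in controls and from 2308 to 3089 CPM in HOXA13 libraries (log2 fold change 0.35, SE 0.17, adjusted p = 0.174). *Col1a2* had a log2 fold change of 0.21 (SE 0.16, adjusted p = 0.377) and *Thy1* one of -0.09 (SE 0.12, adjusted p = 0.630). Control library 1 was lowest in the summed markers, as it was in *Fn1*, *Snai2*, *Zeb1* and *Twist1*. Some of the markers, like *Fn1*, lie on chromosome 1.

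**Figure D4:**
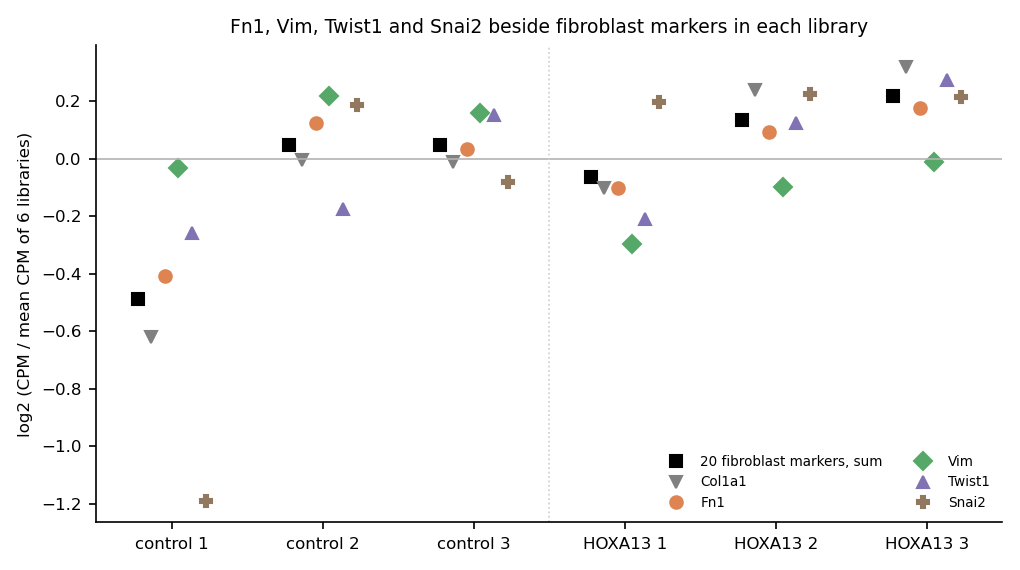
Log2 of CPM over the mean CPM of the 6 libraries for *Fn1*, *Vim*, *Twist1*, *Snai2*, *Col1a1* and the sum of the 20 fibroblast markers in each library. The marker sum, *Col1a1*, *Fn1*, *Twist1* and *Snai2* are lowest in control library 1, whereas *Vim* is lowest in HOXA13 library 1.

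Ratios to the summed fibroblast markers, chosen after the data were seen and given without a test, were read for these genes. *Fn1* was 1.03, 1.03 and 0.963 times the marker sum in controls and 0.948, 0.945 and 0.945 times in HOXA13 libraries. *Fn1* thus stayed near the level of the marker sum in all 6 libraries, but its groups did not overlap and the HOXA13 group was lower. *Vim* was 0.315, 0.258 and 0.248 times the sum in controls and 0.196, 0.195 and 0.197 times in HOXA13 libraries, so that the groups did not overlap either. The *Zeb2* ratio was 0.00491, 0.00378 and 0.00363 in controls and 0.00329, 0.00299 and 0.00273 in HOXA13 libraries, again without overlap. For *Twist1*, *Snai2*, *Zeb1* and *Cdh11* the ratios overlapped between groups. Those of *Cdh2* and *Itga5* did not overlap and were also lower in HOXA13 libraries. How many of all genes separate in this way was not counted, so the separation is not particular to these members. With libraries scaled to these markers, also chosen after the data were seen, *Vim* had a log2 fold change of -0.48 (adjusted p = 0.0862), *Fn1* one of -0.09 (0.729) and *Cdh1* one of -0.77 (0.0443), while the median of all genes shifted by -0.24. On that scale *Epcam* was at 0.11 (adjusted p = 0.790), above this shifted median. How much of each member's RNA came from feeder cells was not tested.

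The catenins and nectins that join cadherins to the cytoskeleton and to neighbouring cells moved in both directions. Of 12 adherens junction partners, 2 were higher and 5 lower in HOXA13 libraries (58.3% called against 27.7% of all genes, median log2 fold change -0.13). *Ctnna1*, alpha-catenin, which links the complex to actin, was at 623, 700.0 and 597 CPM in controls and 808, 774 and 764 CPM in HOXA13 libraries (log2 fold change 0.29, SE 0.07, adjusted p = 0.0207). *Ctnnb1*, beta-catenin, was at 973 ± 25.6 and 1004 ± 6.47 CPM (0.05, SE 0.05, adjusted p = 0.575), and *Ctnnd1*, p120-catenin, which keeps cadherins at the surface, at 473 ± 22.8 and 536 ± 3.36 CPM (0.18, SE 0.06, adjusted p = 0.0521). Plakoglobin (*Jup*), a relative of beta-catenin, was lower, at 220 ± 35.1 against 165 ± 11.4 CPM (-0.41, SE 0.11, adjusted p = 0.0297). So were nectin-3 (*Pvrl3*; -0.50, SE 0.08, adjusted p = 0.00277), nectin-1 (*Pvrl1*; -0.39, SE 0.12, adjusted p = 0.0489) and afadin (*Mllt4*; -0.49, SE 0.11, adjusted p = 0.0128), which ties nectins to actin. With each library left out in turn, *Pvrl3* was called in all 6 fits, *Jup* and *Mllt4* in 3 each, *Ctnna1* in 2 and *Pvrl1* in 1, with an adjusted p of up to 0.152 for *Pvrl1*. The *Jup* call was also lost with the replicate block.

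Among the 18 other cadherins listed, 11 passed the filter, of which 4 were lower and 0 higher in HOXA13 libraries (36.4% called, all lower, against 13.3% of all genes called lower; median log2 fold change -0.38). The median was the same with *Cdh9* set at its bound. *Cdh3*, P-cadherin, was at 198, 72.8 and 109 CPM in controls and 50.8, 63.2 and 60.5 CPM in HOXA13 libraries (-1.13, SE 0.31, adjusted p = 0.0302). Its controls followed the order of *Cdh1*, and without control library 1 the log2 fold change was -0.66 (adjusted p = 0.0111). *Cdh10* went from 4.87 ± 0.869 to 2.73 ± 0.501 CPM (-0.84, SE 0.22, adjusted p = 0.0237) and *Cdh24* from 13.1 ± 1.24 to 9.31 ± 0.130 CPM (-0.49, SE 0.12, adjusted p = 0.0168). *Cdh9* had 28, 15 and 23 counts in controls and 1, 0 and 1 in HOXA13 libraries, at least 6.30-fold lower when the latter are set at 3 counts per library (adjusted p = 0.000761). The *Cdh9* call held in all 6 fits that left out a library, those of *Cdh10* and *Cdh24* in 3 and that of *Cdh3* in 2, and *Cdh3* and *Cdh10* also lost theirs with the replicate block. The mesenchymal cadherin *Cdh11*, chosen here after its values were seen, was at 139 ± 27.0 and 150 ± 0.675 CPM (0.11, adjusted p = 0.569).

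**Figure D5:**
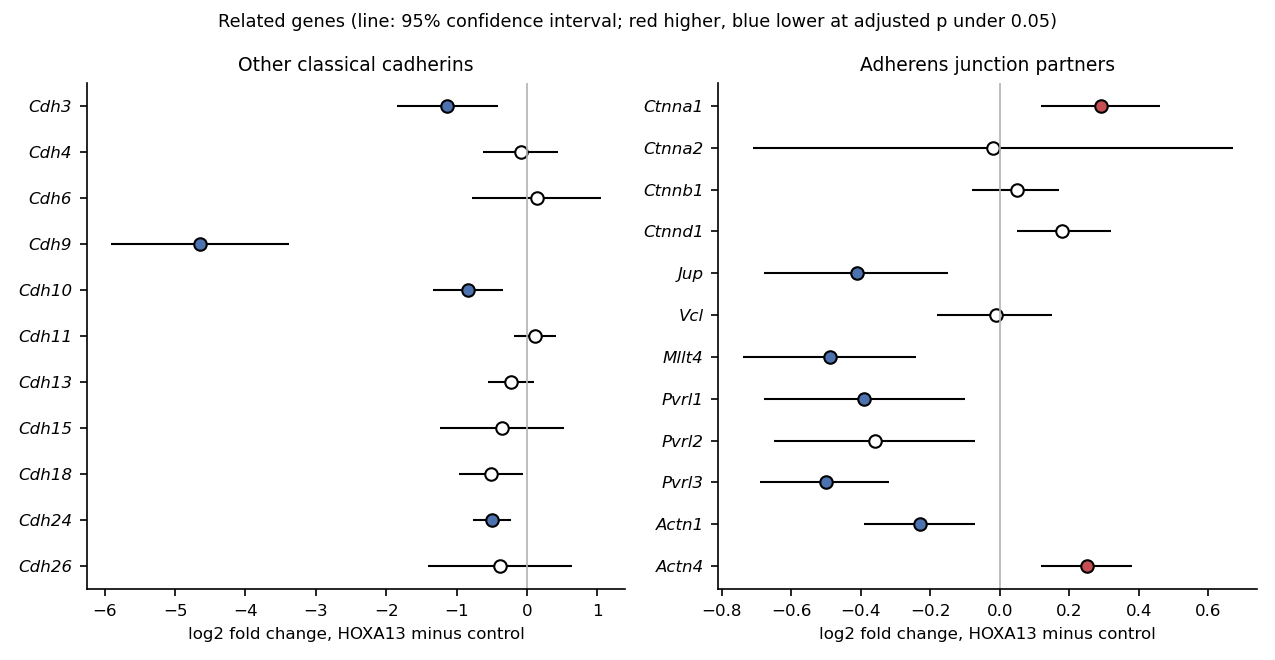
Log2 fold changes (HOXA13 minus control, circles) with 95% intervals (lines) of the 11 tested other cadherins and the 12 adherens junction partners, on axes of different range, with red or blue fill for genes higher or lower at an adjusted p under 0.05. The 4 called cadherins all lie below 0, with the fitted value of *Cdh9* resting on HOXA13 libraries of at most 1 count, and the called junction partners lie on both sides of 0.

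Of 28 other epithelial genes, 7 were higher and 5 lower (42.9% called against 27.7% of all genes, median log2 fold change 0.08). The epithelial transcription factor *Elf3* was at 27.9, 23.1 and 28.4 CPM in controls and 174, 171 and 160.1 CPM in HOXA13 libraries (2.67, SE 0.09, adjusted p = 3.22e-06). *Esrp2*, a splicing regulator of epithelial transcripts, rose from 14.3 ± 2.22 to 40.0 ± 2.39 CPM (1.48, SE 0.12, adjusted p = 0.000134). *Ovol2*, a repressor of *Zeb1* in epithelia that was named after its values were seen, rose from 4.10 ± 0.769 to 9.64 ± 0.588 CPM (1.24, SE 0.17, adjusted p = 0.00164). Of the keratins of simple epithelia listed, *Krt8* fell from 142, 19.5 and 58.9 CPM to 13.5, 15.4 and 12.6 CPM (-2.42, SE 0.60, adjusted p = 0.0196) and *Krt18* fell by 2.39 on the log2 scale (SE 0.51, adjusted p = 0.0110), while *Krt19* (-1.79, adjusted p = 0.0557) did not pass the test. The control values of *Krt8* again followed the order of *T*. The calls of *Elf3*, *Esrp2* and *Ovol2* held in all 6 fits that left out a library, while *Krt8* kept 3 and *Krt18* 4 of 6, with an adjusted p of up to 0.0970 for *Krt8*, whose call was also lost with limma-voom. Without control library 1 the log2 fold change was -1.52 for *Krt8* and -1.61 for *Krt18*.

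Of 20 other EMT regulators, 1 was higher and 4 lower (25.0% called, median log2 fold change -0.13), close to the share over all genes. *Klf8*, a Krüppel-like repressor of *Cdh1*, was at 35.7, 37.1 and 31.7 CPM in controls and 65.1, 61.3 and 57.4 CPM in HOXA13 libraries (0.82, SE 0.09, adjusted p = 0.000496). *Tgfb1*, an EMT-inducing ligand, went from 30.7 ± 6.51 to 18.6 ± 2.37 CPM (-0.73, SE 0.16, adjusted p = 0.0136). *Tcf3*, which encodes the E-box binding factor E2A, went from 186 ± 13.5 to 145 ± 9.25 CPM (-0.36, SE 0.08, adjusted p = 0.0111). Over the 6 left-out libraries *Klf8* was called in 6 fits, *Tcf3* in 5 and *Tgfb1* in 4.

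Among 16 fibronectin receptors and matrix genes, 0 were higher and 4 lower (25.0% lower, against 13.3% of all genes, median log2 fold change -0.16), and at an unadjusted p under 0.05 the counts were 0 and 5. The fibronectin receptor subunit *Itga5* was at 314, 350.2 and 344 CPM in controls and 239, 267 and 285 CPM in HOXA13 libraries (-0.35, SE 0.08, adjusted p = 0.0146). Its partner *Itgb1* was at 1554 ± 183 and 1399 ± 29.1 CPM (-0.15, SE 0.09, adjusted p = 0.242). *Itga4*, another fibronectin-binding integrin, went from 7.63 ± 1.39 to 3.04 ± 0.247 CPM (-1.33, SE 0.19, adjusted p = 0.00185), and the hyaluronan receptor *Cd44* from 239 ± 42.8 to 166 ± 6.71 CPM (-0.53, SE 0.12, adjusted p = 0.0157). The intermediate filament *Nes*, also on the neural list, went from 213 ± 101 to 59.3 ± 3.84 CPM (-1.85, SE 0.30, adjusted p = 0.00334). *Itga4* and *Nes* were called in all 6 fits that left out a library, *Itga5* in 3 and *Cd44* in 2. Thus *Itga5* RNA was lower while that of its ligand *Fn1* did not pass the test.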

How the data were processed

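RNA of 6 KH2 cultures (3 control, 3 HOXA13) was sequenced from stranded poly(A) libraries. Per the labels and the methods, the authors mapped reads to mm9 with TopHat2 (2.0.14 in the submitters' processing notes) and deposited HTSeq 0.6.1p1 counts per gene, without normalization. The annotation and strand setting of the counting are not given in the sources used here. *Fn1* overlaps *Apol7d* on the opposite strand (1 to 7 counts a library) and *Zeb1* overlaps *Gm10125* (0 to 2 counts). Groups and replicate numbers came from the labels. Counts were tested with edgeR 4.0.16 in R 4.3.3 (TMM scaling, filterByExpr with a minimum count of 10, quasi-likelihood test, Benjamini-Hochberg adjustment over 13846 genes, threshold 0.05). The paper's methods name DESeq2, which was run here as an alternative (1.42.0), as was limma-voom (limma 3.58.1). The scripts were tested on simulated data. CPM use TMM-scaled library sizes. Levels per kilobase use merged exons. Interval limits and the 3-count floor cover, respectively, the spread between libraries and counting error only. The members and lists were chosen with earlier results of these data known. All 10 members are named. From each list, genes past the threshold were named, up to the 4 with the largest absolute log2 fold change among those with a mean of at least 1 CPM in 1 group, and genes named for their role. One listed gene is not reported here by name. Alternatives changed the scaling, filter, dispersion, test, chromosome centring or libraries.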

Additional observations from a re-analysis of the deposited data

How the results depend on the processing

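*Epcam* kept its call in every alternative except scaling to *Pou5f1* (0.39, adjusted p = 0.0746) and to the fibroblast markers (0.11, 0.790), both chosen after the data were seen. *Cdh1* lost its call when scaled to *Pou5f1* (log2 fold change -0.49 as before, SE 0.18, adjusted p = 0.0847), and *Cdh2* lost it there (-0.25, 0.159), when scaled to the fibroblast markers (0.147, log2 fold change -0.53) and with the replicate block (0.0501). The direction of *Snai1* turned without control library 1 (-0.19 to 0.16 over the left-out libraries), as did that of *Zeb1* (-0.09 to 0.21) and *Fn1* (-0.02 to 0.22). *Fn1* also turned with chromosomes centred (-0.23), and the cause of these turns was not tested. Scaling to the fibroblast markers gave *Fn1* -0.09, *Zeb1* -0.14 and *Twist1* -0.08, all above the median of all genes on that scale, which shifted by -0.24.

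Members higher numbered 0 when scaled to *Pou5f1* and 0 when scaled to the fibroblast markers, and members lower 4 with library size alone, 0 when scaled to *Pou5f1* and 1 when scaled to the fibroblast markers. With 1 library left out, 1 member was higher and 0 to 4 lower. Scaling to the fibroblast markers gave 431 genes higher and 1265 lower, scaling to *Pou5f1* gave 1683 and 1099, and leaving out 1 library gave 1134 to 2428 and 904 to 2579. Over all tested genes, deviations from the group means were nearly uncorrelated between same-numbered libraries (-0.015, -0.045 and 0.018). A pairing limited to some genes would not show there, and library 1 was the lowest of its group for *Vim* and *Fn1* in both groups. The replicate block called 1696 genes higher and 1476 lower. By coding length the *Cdh1* to *Cdh2* ratio was 7.20 in controls and 6.21 in HOXA13 libraries.

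In the lists, the replicate block gave 2 other cadherins lower and 2 other EMT regulators higher. Epithelial genes lower numbered 8 with no filter and 3 with limma-voom, and matrix genes lower 7 with chromosomes centred. Over the left-out libraries the counts were 1 to 6 for other cadherins lower, 0 to 2 for adherens junction partners higher and 1 to 6 lower, 1 to 9 for epithelial genes lower, 1 to 2 for other EMT regulators higher and 0 to 6 lower, and 0 to 1 for matrix genes higher and 2 to 8 lower.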

Other observations

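Neural and primitive endoderm genes, other cell types that a stem cell culture can form, were also listed. Of 5 neural markers tested, 4 were lower and 0 higher in HOXA13 libraries, where 13.3% of all genes were lower and 14.4% higher. *Pax6*, a neural transcription factor, was at 6.06, 8.36 and 6.62 CPM in controls and 2.54, 1.76 and 1.13 CPM in HOXA13 libraries (log2 fold change -1.91, SE 0.28, adjusted p = 0.00204). *Tubb3*, a neuronal tubulin, went from 90.1 ± 2.45 to 41.7 ± 1.15 CPM (-1.11, SE 0.07, adjusted p = 2.42e-05). Of 10 primitive endoderm markers tested, 2 were higher and 3 lower, where 27.7% of all genes were called. The endoderm factors *Gata6* (3.12 ± 0.711 to 11.0 ± 0.716 CPM, 1.80, SE 0.18, adjusted p = 0.000391) and *Sox7* (1.93 ± 1.68 to 8.15 ± 0.566 CPM, 2.14, SE 0.48, adjusted p = 0.0126) rose, while the laminin genes *Lama1* (-2.22, SE 0.25, adjusted p = 0.000557) and *Lamb1* (-0.80, SE 0.09, adjusted p = 0.000500) fell. These calls held in all 6 fits that left out a library, except that of *Sox7*, which was lost without any 1 of the HOXA13 libraries (adjusted p up to 0.0586).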
